A study of Mus musculus with 6 samples.

Results

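The genes described here encode the synaptotagmins, the SNARE proteins and the factors that drive or hold back exocytosis. They were taken by symbol from a list of 45 names in 9 classes. Matching by symbol used no measured value, but the names were chosen with earlier results of these data known. Of the 45 names, 44 were found and tested, among the 21876 genes tested of the 55357 genes counted. *Vamp7* is named only. The data were 6 RNA-seq libraries of poly(A) RNA from primary neuronal cultures of cortex and hippocampus of wild type C57BL/6N mouse embryos at E18. All cultures were transduced with a pLVTHM lentivirus at DIV4 and collected at DIV14. In 3 libraries the cultures had received a scrambled shRNA (shCtrl) and in the other 3 an shRNA against *Pla2g4e* (sh*Pla2g4e*), a phospholipase A2 family member with N-acyltransferase activity. The comparison asks which transcripts change when *Pla2g4e* is reduced before its peak in culture. The knockdown rests on 1 shRNA sequence, sh2, with the virus dose set on purpose to a partial reduction, and the lentivirus reaches any cell of the culture, not neurons alone.

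Synaptic vesicles fuse when a vesicle SNARE of the VAMP family zips together with a syntaxin and a SNAP25 family protein on the plasma membrane. Munc18 proteins hold and guide the syntaxin, complexins clamp and then help the assembled complex, and synaptotagmins and Doc2 proteins bind calcium or phospholipids to couple fusion to the signal. Rab3 proteins bring vesicles to the release site, tomosyns bind syntaxin and SNAP25 in place of the VAMP, and NSF with its SNAP adaptors pulls spent complexes apart.

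The sh2 sequences are shown because every difference below is a difference between cultures with and without this hairpin. Capitals mark bases 2 to 8 of the guide strand, its seed, and the bases that pair with it in the target. All sequences are written 5′ to 3′ as DNA.
sh2 guide strand: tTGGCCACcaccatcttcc
sh2 target in Pla2g4e: ggaagatggtgGTGGCCAa
The 7-base match to the seed, GTGGCCA, was searched on the transcript strand in 1 3′ UTR per gene, that of its longest coding transcript (GENCODE vM21, GRCm38). It stood in 14 of the 44 members (31.8%) and in 2107 of 15705 genes tested that have a 3′ UTR (13.4%). The members have longer 3′ UTRs than other genes, with a median of 1986 against 1115 bases. Among genes with a 3′ UTR of 1500 to 2500 bases the match stood in 18.2%, and in 3 of the 13 members of that length. It occurred in 3 of the 8 members called lower below, in the 1 called higher and in 10 of the 35 not called, so members in all 3 sets carried it. The sites of the 4 called members follow with 9 bases on either side, the 7 bases in capitals.
Stx1a site: tggtaagttGTGGCCAgagttgcat
Stx7 site: tctggctttGTGGCCAttatacctt
Syt16 site: acctgctatGTGGCCAtgagaaaat
Syt12 site: tctcaccctGTGGCCAatattcaag
In GRCm38 the capital bases lie at chr5:135050640-135050646 on the plus strand for *Stx1a*, at chr10:24188528-24188534 on the plus strand for *Stx7*, at chr12:74270441-74270447 on the plus strand for *Syt16* and at chr19:4446147-4446153 on the minus strand for *Syt12*. A letter match is a description of the sequence, and pairing at these sites was not tested.

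*Pla2g4e* itself, as a check of the labels, had 38.0, 35.1 and 35.4 CPM in shCtrl libraries 1, 2 and 3 and 21.8, 14.1 and 18.7 CPM in libraries 1, 2 and 3 of sh*Pla2g4e*. CPM are counts per library size, scaled with edgeR's TMM factors. The groups did not overlap, and 50.5% of the transcript was left. Between 17054717 and 23570180 reads were counted per library, and all members except *Syt2* had at least 178 reads in every library. Nothing in the labels says that the libraries came from separate cultures, so p-values measure the spread between these 3 and 3 libraries, which may be technical. In bulk RNA, fewer cells of a type and less RNA per cell cannot be told apart.

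Across the group, 8 members were lower and 1 was higher in sh*Pla2g4e* cultures at an adjusted p of 0.01 from edgeR's quasi-likelihood test. The lower members were *Doc2b*, *Doc2a*, *Syt3*, *Syt16*, *Stx1a*, *Cplx1*, *Stx7* and *Stx12*, and the higher one was *Syt12*. They were 18.2% of the members for lower and 2.27% for higher, against 4.00% and 2.48% of all genes tested. With a block for the replicate number, 15 members were lower (34.1%, against 9.02% of all genes) and 3 higher (6.82%, against 6.50%). The block added *Cplx2*, *Nsf*, *Snap47*, *Syt4*, *Syt9*, *Syt13* and *Vamp1* to the lower members and *Snap25* and *Stxbp5* to the higher ones. The CPM of the groups did not overlap in 20 of 44 members (45.5%), and in 30.0% of all genes. None of these shares was matched for expression level. With at least 10 reads required in every library, 764 of 15312 genes and 7 members were lower. In that fit 498 genes and 1 member were higher. The median log2 fold change of the members was −0.13, and 29 of 44 (65.9%) had a negative value. Over all genes tested the median was 0.029 with 46.5% negative, and among the 10958 genes whose log2 CPM averaged 3 or more, where 43 of the members lie, it was −0.023 with 54.5% negative.

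How many members passed depended on the scaling and on single libraries. Scaling by library size alone gave 4 lower (*Syt3*, *Syt16*, *Stx7*, *Doc2b*) and 3 higher (*Syt12*, *Snap25*, *Stxbp5*). Without shCtrl replicate 1, and likewise without shCtrl replicate 2, only *Syt3* and *Doc2b* of the members stayed below 0.01 as lower. Without sh*Pla2g4e* replicate 1 the 3 lower members were *Syt3*, *Syt16* and *Doc2b*, and without sh*Pla2g4e* replicate 2 they were *Syt3*, *Cplx1* and *Doc2b*. Without sh*Pla2g4e* replicate 3, *Cplx1* and *Doc2a* left the lower members and *Vamp1* joined them, while *Stxbp5* joined the higher ones. Without shCtrl replicate 3, *Nsf* joined the lower members. *Syt3* and *Doc2b* were lower at 0.01 in all 6 fits that left out a library, and *Syt12* was higher in 5, the exception being the one without sh*Pla2g4e* replicate 1 (adjusted p = 0.012).

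**Figure D1:**
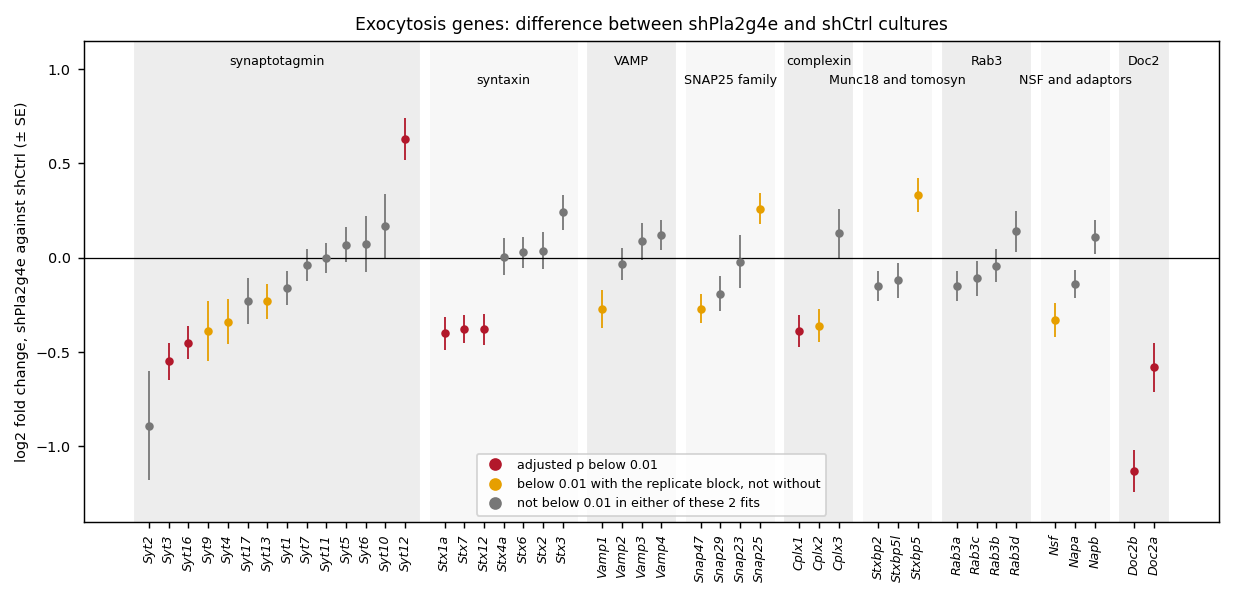
Log2 fold change of each of the 44 members, sh*Pla2g4e* against shCtrl, with its standard error as a vertical bar, grouped by class along the horizontal axis and coloured by whether it passed an adjusted p of 0.01 in the edgeR fits of all 6 libraries without and with the replicate block. Most values lie between −0.5 and 0.5. *Doc2b* is the lowest at −1.13 and *Syt12* the highest at 0.63.

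Markers of the cell types that such cultures can hold were summed per library. The 8 neuron markers, which include *Snap25*, summed to between 4663 and 5056 CPM in shCtrl and between 3678 and 4091 CPM in sh*Pla2g4e* libraries, and 4 of them were called lower (*Rbfox3*, *Map2*, *Tubb3*, *Slc17a7*) and 1 higher (*Nefl*). The 6 astrocyte markers summed to between 1572 and 2282 CPM in shCtrl and between 1126 and 1943 CPM in sh*Pla2g4e* libraries, with 2 called lower (*Aqp4*, *Gja1*). With the block 5 of these 6 were lower, *Gfap*, *Slc1a3* and *Aldoc* being added, and the astrocyte sum was lower in sh*Pla2g4e* within all 3 pairs of the same number. Oligodendrocyte lineage markers held between 476.6 and 533.1 CPM in shCtrl and between 493.2 and 575.9 CPM in sh*Pla2g4e* libraries, and edgeR called 0 of 6 without the block and 1, *Olig2*, lower with it. Microglia markers stayed under 5 CPM in sum and endothelial and mural markers under 25 CPM, with *Cldn5* listed at 0. The neuron sums did not overlap between groups, while the sums of the other lists did when the pairs were set aside. Their part in the differences below was not tested.

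Levels between genes were compared as CPM per kb of exon. In shCtrl cultures, *Vamp2*, the main vesicle SNARE of forebrain synapses, stood highest at 375 CPM per kb. The Rab protein *Rab3a* followed at 168, *Syt11*, a synaptotagmin that does not bind calcium, at 158, and the plasma membrane SNARE *Snap25* at 142 CPM per kb. *Cplx2* (129), *Cplx1* (123), the fast calcium sensor *Syt1* (118) and *Syt4* (103) were the other members at 100 CPM per kb or more. A further 20 members lay between 10 and 100, 15 between 1 and 10, and *Syt2* alone under 1, at 0.42 CPM per kb. For 29 of the 43 pairs of neighbours in this order the shCtrl ranges overlapped, so that most neighbours cannot be ranked. *Vamp2* stood clear of the next gene, with a range from 344 to 400 against 155 to 176 CPM per kb for *Rab3a*, and *Syt2* clear of the gene before it. *Rab3a*, *Syt11* and *Snap25* form a chain in which each overlaps the next.

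**Figure D2:**
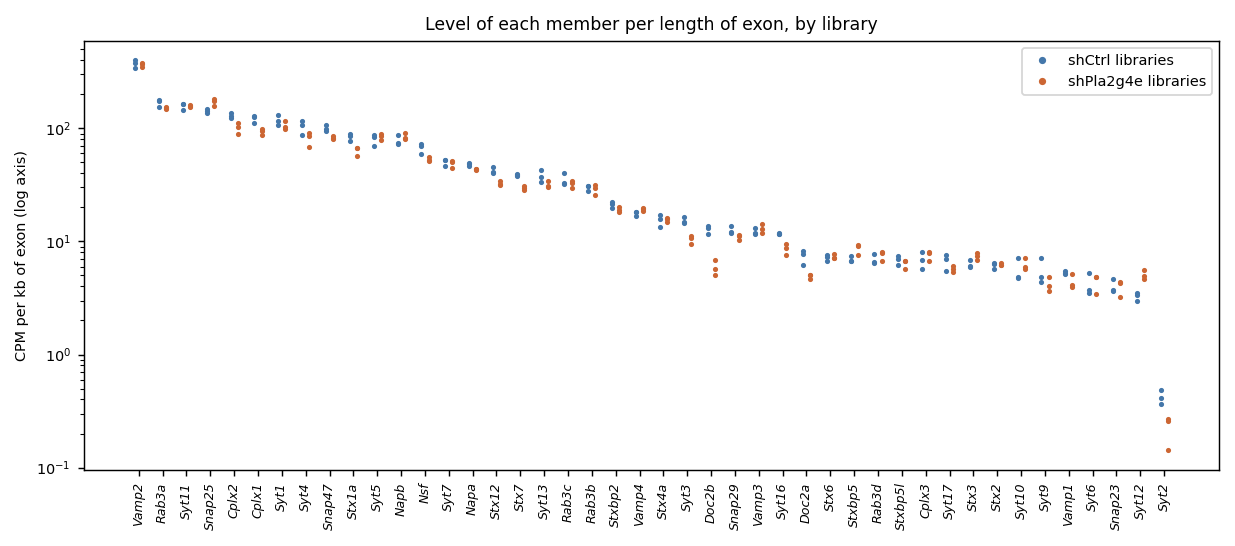
Level of each member in CPM per kb of exon on a log axis, ordered by the shCtrl mean, with 1 point per library, 3 shCtrl and 3 sh*Pla2g4e*. Levels span from 375 CPM per kb for *Vamp2* to 0.42 for *Syt2* in shCtrl, and at this scale the 2 groups lie close together for most members, with *Doc2b*, *Doc2a*, *Syt3*, *Syt12* and *Syt2* visibly apart.

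The Doc2 proteins are calcium-binding C2-domain proteins linked to spontaneous and asynchronous release, and both *Doc2b* and *Doc2a* were lower. *Doc2b* (chr11:75659792-75686875 on the minus strand, GRCm39, as all gene positions here) had 60.0, 57.1 and 50.7 CPM in shCtrl and 25.1, 22.1 and 29.7 CPM in sh*Pla2g4e* libraries. Every sh*Pla2g4e* library lay under every shCtrl library, and the mean fell from 55.9 ± 4.74 to 25.6 ± 3.86 CPM (SD, n = 3). Its log2 fold change was −1.13 (standard error 0.11, edgeR adjusted p = 7.55e-06), and between −1.25 and −1.03 when a library was left out. *Doc2a* (chr7:126446588-126451877, plus strand) had 21.6, 23.1 and 17.3 CPM against 14.2, 14.1 and 13.1 CPM, again without overlap. Its log2 fold change was −0.58 (standard error 0.13, edgeR adjusted p = 0.00666), with adjusted p up to 0.0541 over the alternatives. The *Doc2a* value is uncertain, since 39.4% of its exon bases overlap *Ino80e* on the other strand and the counting took both strands. *Doc2g*, the remaining gene of the family, is on the list of other fusion genes and overlapped between groups, at 2.73 CPM in the mean of shCtrl and 3.69 CPM in that of sh*Pla2g4e* libraries (log2 fold change 0.43, edgeR adjusted p = 0.311). Per kb *Doc2a* and *Doc2b* summed to 20.2 ± 2.08 in shCtrl and 10.8 ± 0.706 CPM per kb in sh*Pla2g4e* cultures (SD, n = 3), a change of −46.5%. The share of *Doc2b* in that sum was 64.0%, 61.4% and 65.3% in shCtrl and 53.1%, 50.1% and 59.2% in sh*Pla2g4e* libraries.

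Among the 14 synaptotagmins, 10 had negative log2 fold changes, 2 were called lower and 1 higher. *Syt3* (chr7:44033526-44049611, plus strand), a calcium sensor of high affinity, had 51.7, 46.3 and 45.2 CPM in shCtrl and 35.1, 29.4 and 33.3 CPM in sh*Pla2g4e* libraries. The groups did not overlap, and the log2 fold change was −0.55 (standard error 0.096, edgeR adjusted p = 0.00119). *Syt16* (chr12:74044435-74320041, plus strand), which does not bind calcium, had 108.7, 106.5 and 105.3 CPM against 86.2, 69.4 and 79.2 CPM. The shCtrl values lay within 4 CPM of each other, above all 3 of the other group, with a log2 fold change of −0.45 (standard error 0.087, edgeR adjusted p = 0.00271). *Syt12* (chr19:4495936-4527475, minus strand), also a member without calcium binding, had 19.2, 18.7 and 16.4 CPM in shCtrl and 31.0, 25.7 and 27.4 CPM in sh*Pla2g4e* libraries. It was the one member called higher without the block, by 54.8% in the mean, with a log2 fold change of 0.63 (standard error 0.11, edgeR adjusted p = 0.00137). Of its exon bases 17.2% overlap another gene on the other strand, and 26.7% of its 50-base stretches occur in other genes on either strand. These shares can cover the same bases. Multi-mapping reads and reads on several genes were left out, so the count may lack reads of *Syt12*. Reads from the other strand may also have entered it, so its value is uncertain.

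*Syt4*, *Syt9* and *Syt13* passed with the block and not in the edgeR fit without it, and in each of them every sh*Pla2g4e* library was lower than the shCtrl library of the same number while the groups overlapped. *Syt4*, an activity-regulated synaptotagmin of dense-core vesicles, had 451.4, 415.5 and 336.9 CPM against 355.9, 329.8 and 265.3 CPM, a log2 fold change of −0.34 with adjusted p = 0.0655 in edgeR and 9.19e-06 with the block, and it also passed when no filter on low counts was set (adjusted p = 0.00171). Of the exon bases of *Syt4*, 14.5% overlap another gene on the other strand, and 10.9% of its 50-base stretches occur in other genes. In *Syt9*, which can act as a fast sensor, the levels were 28.6, 19.4 and 17.5 CPM against 19.2, 15.9 and 14.6 CPM (adjusted p = 0.141 in edgeR and 0.00544 with the block). *Syt13*, another form without calcium binding, had 159.4, 139.5 and 125.3 CPM against 129.5, 114.0 and 117.1 CPM (adjusted p = 0.121 in edgeR and 0.00681 with the block). *Syt2*, the fast sensor of hindbrain and parvalbumin neurons, was barely present, at 2.81, 3.12 and 3.69 CPM against 2.05, 1.99 and 1.09 CPM with as few as 19 reads in a library. Its groups did not overlap, but the log2 fold change of −0.89 (standard error 0.29) missed the threshold with an edgeR adjusted p of 0.0528.

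Of the abundant synaptotagmins, *Syt1*, *Syt5*, *Syt7* and *Syt11* passed in neither fit. *Syt11* had 862.8, 859.4 and 749.5 CPM in shCtrl and 810.4, 831.0 and 826.0 CPM in sh*Pla2g4e* libraries, a log2 fold change of −0.0025 (standard error 0.081). *Syt1*, the main fast sensor of forebrain synapses, had a log2 fold change of −0.16 (standard error 0.092, edgeR adjusted p = 0.299), *Syt7*, the slow sensor, one of −0.040 and *Syt5* one of 0.068. Summed per kb, the 14 synaptotagmins reached 600.2 ± 59.6 in shCtrl and 554.9 ± 27.4 CPM per kb in sh*Pla2g4e* cultures (SD, n = 3), and the libraries overlapped. Within all 3 pairs of the same number this sum was lower in sh*Pla2g4e*. Together *Syt1*, *Syt4*, *Syt5*, *Syt7* and *Syt11* made up between 84.6% and 85.7% of that sum in shCtrl and between 85.7% and 86.9% in sh*Pla2g4e* libraries. *Syt6*, *Syt10* and *Syt17* had log2 fold changes between −0.23 and 0.17 with overlapping groups.

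Of the 7 syntaxins, 3 were called lower and none higher by edgeR at 0.01, and the other 4 had log2 fold changes between 0.0062 (*Stx4a*) and 0.24 (*Stx3*). *Stx1a* (chr5:135052336-135079954, plus strand), the syntaxin of the presynaptic plasma membrane, had 236.0, 230.1 and 206.6 CPM in shCtrl and 180.1, 153.2 and 177.2 CPM in sh*Pla2g4e* libraries. All sh*Pla2g4e* libraries were lower, with a log2 fold change of −0.40 (standard error 0.087, edgeR adjusted p = 0.00600). The remaining lower syntaxins act on endosomes. *Stx7* (chr10:24025200-24066120, plus strand), of late endosomes and lysosomes, had 175.2, 171.1 and 172.7 CPM against 137.2, 128.7 and 133.5 CPM, and its log2 fold change was −0.38 (standard error 0.074, edgeR adjusted p = 0.00287). *Stx12* (chr4:132580812-132611820, minus strand), of recycling endosomes, had 145.1, 129.5 and 131.4 CPM against 99.6, 103.4 and 109.9 CPM, and its log2 fold change was −0.38 (standard error 0.081, edgeR adjusted p = 0.00533). Neither overlapped between groups, and the spread of *Stx7* within each group was small, with SDs of 2.07 and 4.23 CPM. *Stx6*, of the trans-Golgi network, did not share the difference of the other endosomal syntaxins, with a log2 fold change of 0.028 (standard error 0.081). Summed per kb, the syntaxins went from 200.3 ± 8.16 to 162.9 ± 8.12 CPM per kb (SD, n = 3) without overlap, a change of −18.7%. *Stx3* also had no overlap, at 34.0, 34.8 and 38.9 CPM against 42.8, 39.1 and 45.3 CPM, but did not pass (edgeR adjusted p = 0.115, and 0.0314 with the block).

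The complexins clamp primed vesicles and speed release, and both abundant members were lower in every sh*Pla2g4e* library. *Cplx1* (chr5:108666420-108697890, minus strand) had 283.8, 277.1 and 246.2 CPM in shCtrl and 206.5, 217.1 and 190.2 CPM in sh*Pla2g4e* libraries, and its log2 fold change was −0.39 (standard error 0.084, edgeR adjusted p = 0.00523). *Cplx2* had 669.1, 630.2 and 613.3 CPM against 547.6, 441.1 and 502.4 CPM, and its log2 fold change was −0.36 (standard error 0.088). It missed the threshold with an adjusted p of 0.0130 in edgeR and passed with the block (adjusted p = 2.43e-06). It also passed in limma after voom, the study's own test (adjusted p = 0.00682), in DESeq2 (7.07e-04) and with no filter on low counts (6.89e-04). *Cplx3*, the form of retinal ribbon synapses and of subplate neurons, lay at 20.4, 23.7 and 16.7 CPM against 23.2, 19.7 and 23.8 CPM and overlapped. In sum the complexins changed by −22.1%, from 259.1 ± 15.1 to 201.8 ± 9.97 CPM per kb (SD, n = 3), and the libraries did not overlap. Per kb, the ratio of *Syt1* to *Cplx1* was 1.01, 0.917 and 0.948 in shCtrl and 1.22, 1.03 and 1.14 in sh*Pla2g4e* libraries. *Cplx1* and *Cplx2* had near equal shares of the complexin sum, with *Cplx1* between 46.4% and 48.2% in shCtrl and between 44.1% and 50.8% in sh*Pla2g4e* libraries.

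**Figure D3:**
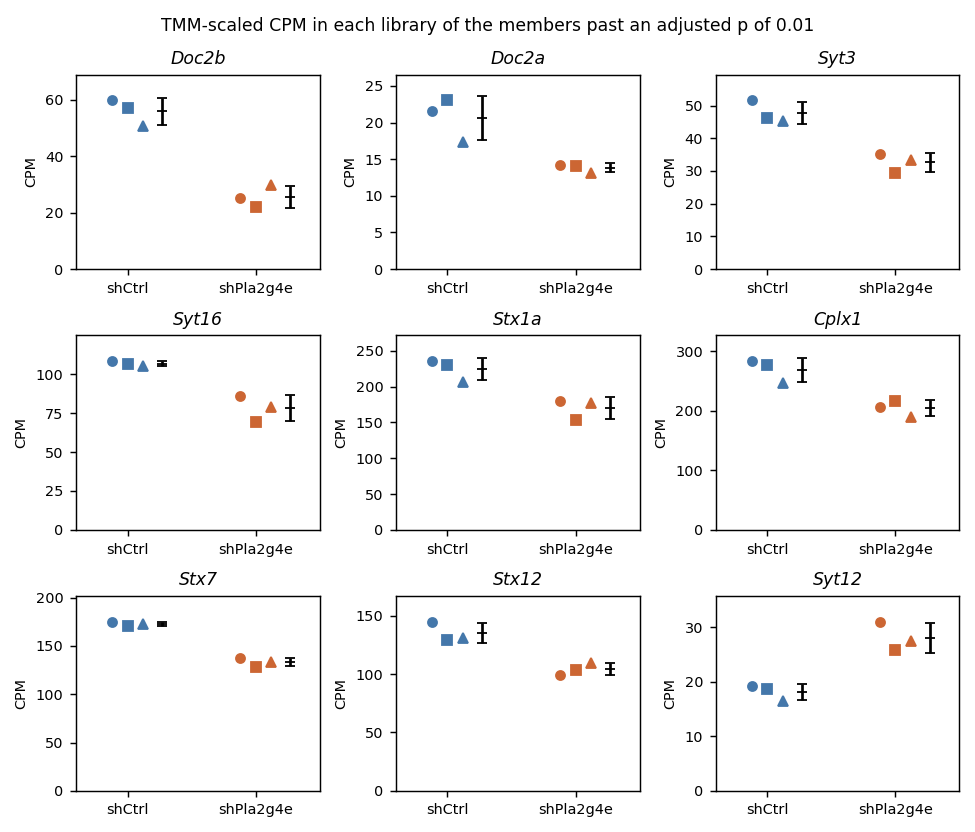
TMM-scaled CPM of the 9 members past an adjusted p of 0.01, in each of the 3 shCtrl (blue) and 3 sh*Pla2g4e* (orange) libraries, with circle, square and triangle for libraries 1, 2 and 3 and the mean ± SD in black beside them. Axes start at 0. In all 9 panels the groups do not overlap, with *Syt12* alone higher in sh*Pla2g4e*.

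The SNAP25 family supplies the plasma membrane partner of syntaxin. None of the 4 members passed at 0.01 in edgeR with TMM scaling and no block, and with the block 1 was higher and 1 lower. *Snap25* had 1010, 926.1 and 960.3 CPM in shCtrl and 1227, 1067 and 1176 CPM in sh*Pla2g4e* libraries. All sh*Pla2g4e* libraries were higher, with a log2 fold change of 0.26 (standard error 0.082) and an adjusted p of 0.0471 in edgeR and 3.53e-04 with the block, and of 0.00411 with library size alone. *Snap47*, a widely expressed relative found on intracellular membranes, had 282.1, 259.6 and 252.5 CPM against 217.8, 213.6 and 227.4 CPM, with a log2 fold change of −0.27 (standard error 0.078). Its adjusted p was 0.0313 in edgeR and 7.06e-04 with the block, and 0.00526 in DESeq2, and 11.6% of its exon bases overlap *Jmjd4* on the other strand. *Snap29* had a log2 fold change of −0.19 without overlap between groups and *Snap23* one of −0.021 with overlap, and neither passed. The sum of the family per kb overlapped between groups, at 258.6 ± 12.2 and 268.1 ± 13.8 CPM per kb (SD, n = 3), while its makeup did not. Within all 3 pairs of the same number the sum was higher in sh*Pla2g4e*. *Snap25* held 54.6%, 54.6% and 55.8% of the sum in shCtrl and 64.9%, 62.3% and 63.3% in sh*Pla2g4e* libraries. The share of *Snap47* was 39.0%, 39.2% and 37.6% in shCtrl and 29.5%, 31.9% and 31.4% in sh*Pla2g4e* libraries.

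None of the 4 vesicle SNAREs passed in the edgeR fit of all 6 libraries without the block. *Vamp2* had 1524, 1448 and 1312 CPM in shCtrl and 1445, 1419 and 1323 CPM in sh*Pla2g4e* libraries, a log2 fold change of −0.033 (standard error 0.083) with overlap. *Vamp1*, its relative of brainstem and motor synapses, had 52.0, 53.5 and 56.2 CPM against 39.8, 42.1 and 52.8 CPM, a log2 fold change of −0.27 with an adjusted p of 0.107 in edgeR and 0.00855 with the block, and of 0.0076 without sh*Pla2g4e* replicate 3. *Vamp3* and *Vamp4*, which serve endosomal traffic, had log2 fold changes of 0.087 and 0.12. Per kb, the ratio of *Vamp2* to *Stx1a* was 4.52, 4.41 and 4.44 in shCtrl and 5.62, 6.48 and 5.23 in sh*Pla2g4e* libraries, without overlap. The ratio of *Snap25* to *Stx1a* was 1.68, 1.58 and 1.82 in shCtrl and 2.68, 2.73 and 2.60 in sh*Pla2g4e* libraries, so the groups differed in the proportions of these 3 partner transcripts. Both ratios are free of the scaling between libraries and carry no test.

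**Figure D4:**
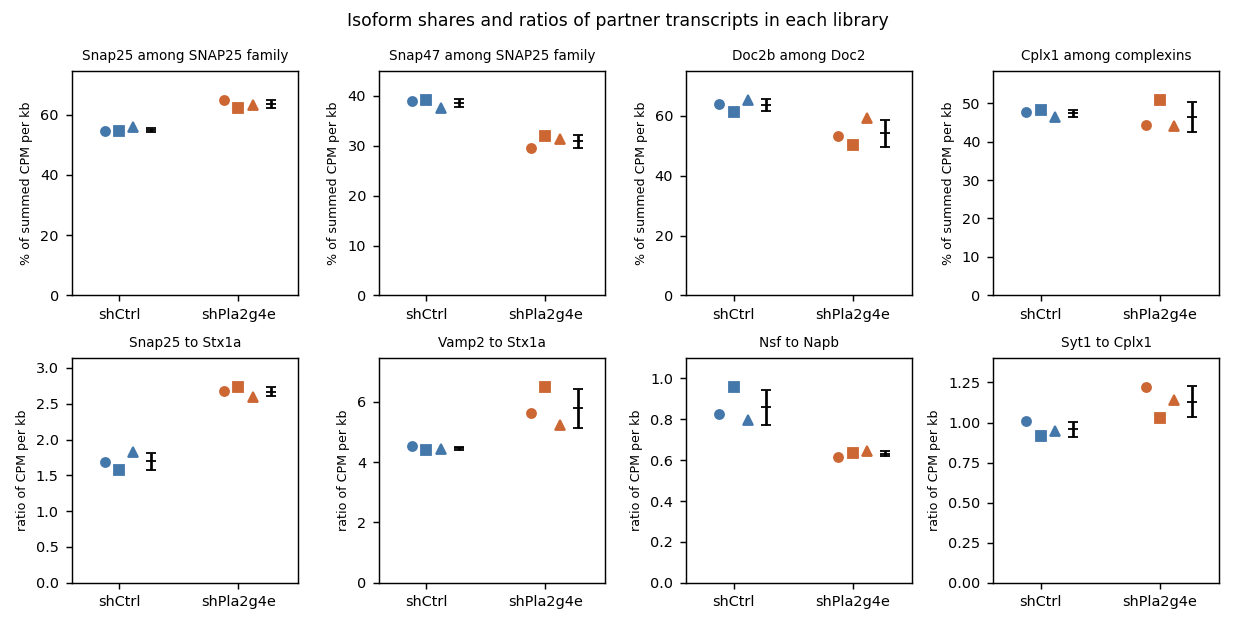
Shares of isoforms in the summed CPM per kb of their class (top row, percent) and ratios of CPM per kb between partner transcripts (bottom row), in each of the 3 shCtrl (blue) and 3 sh*Pla2g4e* (orange) libraries with the mean ± SD in black. Axes start at 0. The share of *Snap25* lies between 54.6% and 55.8% in shCtrl and between 62.3% and 64.9% in sh*Pla2g4e*, and the share of *Cplx1* among complexins overlaps.

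Among the syntaxin-binding members, *Stxbp5*, the tomosyn that competes with the VAMP for syntaxin and SNAP25, had 122.3, 110.4 and 111.6 CPM in shCtrl and 151.8, 155.0 and 126.0 CPM in sh*Pla2g4e* libraries. The groups did not overlap, and the log2 fold change of 0.33 (standard error 0.090) had an adjusted p of 0.0235 in edgeR and 1.23e-04 with the block, and it also passed in DESeq2 (0.00947), with library size alone (0.00509), with no filter (0.00276) and without sh*Pla2g4e* replicate 3 (0.00309). The second tomosyn, *Stxbp5l*, had a log2 fold change of −0.12 and overlapped. *Stxbp2*, a Munc18 known from cells outside the nervous system, had 81.9, 89.4 and 92.6 CPM against 79.3, 75.3 and 83.7 CPM, and its log2 fold change was −0.15 (standard error 0.082, edgeR adjusted p = 0.279).

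Disassembly of the complex is the work of the ATPase *Nsf*, which had 605.0, 581.4 and 493.5 CPM in shCtrl and 468.0, 430.9 and 433.6 CPM in sh*Pla2g4e* libraries. It did not overlap, and its log2 fold change of −0.33 (standard error 0.088) had an adjusted p of 0.0195 in edgeR and 1.81e-05 with the block, and it also passed in DESeq2 (0.00198), with no filter (0.00207) and without shCtrl replicate 3 (0.00225). *Napb*, the brain form of its adaptor, had 620.7, 513.3 and 522.3 CPM against 640.3, 573.5 and 569.0 CPM, and its log2 fold change was 0.11 (standard error 0.090) with overlap. *Napa*, the general form, had a log2 fold change of −0.14. The ratio of *Nsf* to *Napb* per kb was 0.824, 0.957 and 0.798 in shCtrl and 0.618, 0.635 and 0.644 in sh*Pla2g4e* libraries, without overlap.

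None of the 4 Rab3 members passed at 0.01 in edgeR or with the block. *Rab3a*, the main Rab of synaptic vesicles, had 392.7, 384.4 and 344.8 CPM in shCtrl and 343.1, 327.5 and 338.3 CPM in sh*Pla2g4e* libraries. Its groups just missed each other, with a log2 fold change of −0.15 (standard error 0.079, edgeR adjusted p = 0.244). *Rab3b*, *Rab3c* and *Rab3d* had log2 fold changes of −0.043, −0.11 and 0.14 and overlapped.

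A list of 73 other SNARE, tethering and fusion-regulator genes was set beside the members, of which 69 were tested. At 0.01 in edgeR, 6 were lower (8.70%, against 4.00% of all genes) and 0 higher (against 2.48%), with 3 higher and 14 lower at an unadjusted p of 0.05. limma after voom and DESeq2 also called 0 higher. The median log2 fold change of the list was −0.069. The smallest adjusted p belonged to *Snph*, a syntaxin-binding protein that docks axonal mitochondria, to *Exoc6b*, an exocyst subunit, and to *Rims1*, an active zone scaffold that binds Rab3. *Snph* had 224.5, 205.1 and 218.2 CPM against 121.0, 105.2 and 128.1 CPM, and its log2 fold change was −0.87 (standard error 0.087, edgeR adjusted p = 8.49e-06). *Exoc6b* had 99.6, 100.1 and 89.2 CPM against 61.8, 55.3 and 58.7 CPM, and *Rims1* 228.6, 231.1 and 213.0 CPM against 141.9, 111.6 and 142.6 CPM, with log2 fold changes of −0.72 and −0.76. The other lower genes were *Cadps2*, which primes dense-core vesicles, *Stxbp6*, which binds syntaxin, and the exocyst subunit *Exoc6*. With the block 8 were lower (11.6%, against 9.02% of all genes) and 2 higher (2.90%, against 6.50%), the latter *Unc13b*, a priming factor, and *Sytl2*, a Rab27 effector, both named after their values were seen.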

How the data were processed

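Poly(A) RNA of shCtrl and sh*Pla2g4e* cultures was sequenced as 3 libraries per group after library preparation with a stranded kit. The authors aligned reads with STAR 2.7.0d and counted them over exons with featureCounts 1.6.0, and deposited raw counts per gene, 1 file per library, without normalization (versions per the submitters' processing notes). The counts carry GENCODE vM28 and GRCm39 coordinates, whereas the methods name mm10 and Gencode M18. The recorded command holds no strand option, so reads of overlapping genes on the other strand can enter a count, and multi-mapping reads and reads on several genes were left out. Symbols and 3′ UTRs came from GENCODE vM21 (GRCm38) and matched 52081 of 55357 gene identifiers.

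Groups were compared with edgeR 4.0.16 in R 4.3.3 (TMM, glmQLFit, glmQLFTest). A gene needed 6 reads in at least 1 library, which kept 21876, with Benjamini-Hochberg adjustment over all of them and a threshold of 0.01. Alternatives included limma 3.58.1 after voom, which the study used, and DESeq2 1.42.0, with other scalings, filters and thresholds and each library left out. No columns were left out. The members and gene lists were chosen with earlier results of these data known, so no test over a list was made. Sums, shares and ratios per kb are descriptions. Named with values in every library were members past 0.01, the highest member per class, members past 0.01 with the block, members without overlap and an absolute log2 fold change of at least 0.5, and the 3 other fusion genes with the smallest adjusted p in each direction among those past 0.01. *Cplx3* and *Stx3* were added after their values were seen.

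Titles give each group's libraries the numbers 1 to 3. Among 10958 genes averaging a log2 CPM of 3 or more, same-numbered libraries deviated together from their group means (r across genes 0.391, 0.188 and 0.46), and the other pairs had r between −0.391 and 0.105. The numbers were therefore treated as pairs, and blocked values are printed where they change a call.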

Additional observations from a re-analysis of the deposited data

How the results depend on the processing

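Of the members, 8 lower and 1 higher at 0.01 became 4 and 3 under scaling by library size alone, and 15 and 3 under the replicate block. The counts were 11 and 2 with DESeq2, 11 and 2 with no filter and 11 and 3 at an adjusted p of 0.05. Upper-quartile scaling gave 6 and 1, without *Stx1a* (adjusted p = 0.0105) and *Doc2a* (0.0103). Leaving out 1 library gave between 2 and 9 lower and between 0 and 2 higher members. Among other fusion genes, the higher count of 0 became 1 with library size alone, 1 with no filter, 2 with the replicate block and 2 at an adjusted p of 0.05, and leaving out 1 library gave between 4 and 6 lower and 0 higher. The members' median stayed negative in every alternative, between −0.17 and −0.054. The replicate block changed no call of a member other than the 9 it added. Fits without a library have fewer samples, and the lower calls over all genes also fell in 4 of these 6. *Syt2* had the fewest reads of the members, 19 in its lowest library.

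Values that changed sign all belonged to members near 0 that passed in no fit. *Syt11* was 6.3e-04 with limma after voom, 0.033 with upper-quartile scaling, 0.074 with library size alone, 0.016 with at least 10 reads in every library, 0.0097 with filterByExpr and 3.2e-04 with the replicate block. *Stx4a* was −8.4e-04 with DESeq2 and −9.1e-04 with its size factors. Upper-quartile scaling gave 0.0019 for *Vamp2* and 0.014 for *Snap23*, and library size alone gave 0.035 for *Syt7*, 0.043 for *Vamp2*, 0.050 for *Snap23* and 0.031 for *Rab3b*. Leaving out 1 library at a time gave ranges that cross 0, from −0.028 to 0.14 for *Syt5*, −0.033 to 0.27 for *Syt6*, −0.10 to 0.020 for *Syt7*, −0.067 to 0.032 for *Syt11*, −0.013 to 0.071 for *Stx2*, −0.081 to 0.088 for *Stx4a*, −0.019 to 0.069 for *Stx6*, −0.091 to 0.016 for *Vamp2*, −0.10 to 0.11 for *Snap23* and −0.11 to 0.032 for *Rab3b*. The cause was not tested.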
